A study of Mus musculus with 4 samples.

Results

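The 10 genes described here are the VEGF and angiopoietin ligands Vegfa, Vegfc, Pgf, Angpt1 and Angpt2 and the receptors Flt1, Kdr, Flt4, Nrp1 and Tek. They were chosen by name, with earlier results of these data known, as 10 of the 32285 genes in the matrices. Each had UMIs in all 4 libraries. Ovaries were taken from 8-week-old mice of the same litter, dissociated, and profiled by droplet-based 3′ single-cell RNA sequencing, in which each unique molecular identifier (UMI) stands for 1 captured RNA molecule. There were 2 libraries labelled WT, from mice that the study calls Fosl2F/F, which carry loxP-flanked Fosl2 alleles and no Cre. They are called Fosl2F/F here. Another 2 were labelled as Fosl2cKO, from Cyp19a1-Cre mice with the same floxed alleles. The study's vaginal smears placed the sequenced mice in estrus. Fosl2 codes for a subunit of the AP-1 transcription factor. The aromatase gene Cyp19a1 drives the Cre in granulosa cells (GCs), and vessels, stroma and immune cells are not its intended target. The number of mice per group given by the study equals the number of libraries, but neither it nor the labels state that each library is 1 mouse, and p-values measure the spread between libraries.

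Fosl2 itself did not separate the groups in GC-like cells. Its level there, in counts of UMIs scaled to the total of a population (CPM), was 161 and 167 in Fosl2F/F libraries, and 167 and 115 in those labelled Fosl2cKO. Plb1, a phospholipase gene downstream of Fosl2 on the same strand of chromosome 5, was added to this check after its values were seen. Plb1 was at 0.0977 and 0.0519 CPM in Fosl2F/F libraries, from 7 and 2 UMIs, and at 476 and 241 CPM in those labelled Fosl2cKO, from 23797 and 11732 UMIs. Plb1 thus divided the 4 libraries as their labels do, while Fosl2 did not, and whether the counted 3′ ends of Fosl2 lie in the deleted part was not tested. The second group is called by its label below.

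After filtering, 41538 cells remained, from 6760 to 19575 in a library. The second Fosl2F/F library stood apart, with 19575 cells at a median of 3654 UMIs, against medians of 11187 to 12479 UMIs in the other 3. The share of cells removed as doublets, 19.4% there and 5.74 to 7.01% in the others, was set by the number of cells. Of the 57109 barcodes of the 4 libraries, 284 sequences occurred in 2 libraries, and 149 did so among the cells kept. The cells fell into 25 clusters, of which 24 could be named from marker lists. The 10 genes were kept out of the features used for clustering. Clusters of one name were joined into classes for the tests, and levels were read in 15 cell populations with at least 20 cells in every library. The 11 endothelial markers (such as Pecam1 and Cdh5) summed to 6060 to 6789 CPM in the endothelial-like population, against 25.2 to 41.8 in GC-like cells, and none of the 11 was at 0 there. The 6 lymphatic markers (such as Prox1 and Lyve1) summed to 9898 to 19489 CPM in the lymphatic endothelial-like population and to 24.0 to 83.9 in the endothelial-like one.

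Vascular endothelial growth factors are secreted proteins that make endothelial cells divide, migrate and loosen their junctions. VEGF-A signals mainly through the tyrosine kinase receptor KDR, FLT1 binds VEGF-A and PlGF and also acts as a decoy, FLT4 is the receptor for VEGF-C on lymphatic vessels, and NRP1 is a co-receptor shared with semaphorins. Angiopoietin 1, the agonist of the receptor TEK, stabilises vessels, whereas angiopoietin 2 often antagonises it and accompanies sprouting or regression. In the ovary these factors serve the thecal vessels of the growing follicle, which stop at the basement membrane so that the granulosa layer stays avascular until ovulation, and the dense capillary bed of the corpus luteum.

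The ligands are encoded on several chromosomes of GRCm38, with Vegfc and Angpt2 on the same one. Vegfa lies at chr17:46016993-46032369 on the minus strand, Pgf at chr12:85166635-85177790 on the minus strand, and Angpt1 at chr15:42424723-42676977 on the minus strand. Chromosome 8 holds Vegfc at chr8:54077606-54187096 on the plus strand, Angpt2 at chr8:18690263-18741562 on the minus strand, and the receptor gene Nrp1 at chr8:128358604-128503363 on the plus strand. Flt1 and Kdr share chromosome 5, at chr5:147561604-147726011 and chr5:75932827-75978458, both on the minus strand. Flt4 is at chr11:49609263-49652739 and Tek at chr4:94739289-94874976, both on the plus strand. All 10 are protein-coding in GENCODE M21, and 3′ UMIs come mostly from their last exons.

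Flt1, Kdr and Tek had their highest levels in blood or lymphatic endothelial-like cells and Flt4 in lymphatic ones, Nrp1 was spread over endothelial-like, pericyte-like, theca-like, stromal-like and macrophage-like cells, Vegfa came from granulosa-like, theca-like, luteal-like and macrophage-like cells, Angpt1 and Vegfc were highest in smooth muscle-like and endothelial-like cells respectively, and Angpt2 in lymphatic endothelial-like cells. Levels are compared within a gene and not between genes. They are given as a description with no test, because populations are clusters of the same cells.

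**Figure D1:**
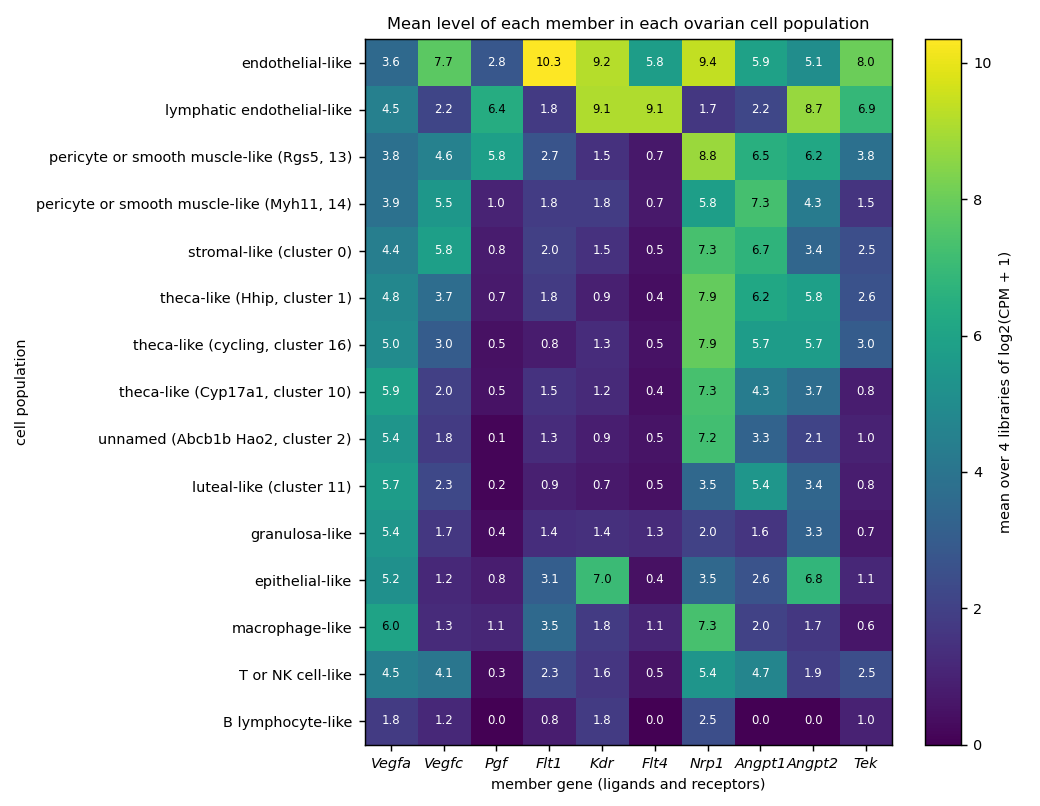
Mean level of each of the 10 genes in 15 ovarian cell populations. Rows are populations, columns are genes, and colour and printed values give the mean over the 4 libraries of log2(CPM + 1). Flt1, Kdr, Nrp1 and Tek share their highest row, the endothelial-like cells, while Flt4, Pgf and Angpt2 are highest in lymphatic endothelial-like cells and Vegfa is spread over many rows.

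Vegfa, the main angiogenic ligand, was broadly expressed and no population stood clear of the next. In macrophage-like cells it was at 44.4 and 54.7 CPM in Fosl2F/F libraries and 81.4 and 81.5 CPM in those labelled Fosl2cKO. That population scored as high for neutrophil as for macrophage markers. Its 5 neutrophil markers summed to 686, 161, 157 and 238 CPM and its 7 dendritic markers to 277 to 369, against 11607 to 14734 for the 7 macrophage markers, and at a finer resolution 342 dendritic-like cells separated from it. The part of these other myeloid cells in the Vegfa level was not tested. The Cyp17a1 theca-like cluster (cluster 10), androgen-producing cells of the follicle wall, had 40.9, 76.4, 64.8 and 52.7 CPM in the same order of libraries. The order by mean ran from macrophage-like over luteal-like cluster 11, theca-like cluster 10, the unnamed cluster 2 (led by Abcb1b and Hao2), GC-like and epithelial-like cells, and each of these overlapped its neighbour in range. GC-like cells had 32.1, 49.9, 47.8 and 42.3 CPM, and being the most numerous they held 51.6% ± 16.6 (SD, n = 4 libraries) of all Vegfa UMIs. Endothelial-like cells, the receivers, were low in Vegfa at 7.72, 13.1, 13.4 and 9.77 CPM. Where libraries tied for the lowest value, the earlier of them was counted. This was so for Vegfa in B lymphocyte-like cells, at 0 in both Fosl2F/F libraries. By this rule the lowest of the 4 libraries was the first Fosl2F/F library in 14 of the 15 populations for Vegfa. Among 13 genes of the hypoxia response, Hif1a was lowest in that library in 10 populations and Epas1 in 11, P4ha1 in 10, Pdk1 in 9, Slc2a1 in 8, Ndrg1 in 7 and Egln3 and Adm in 6 each, whereas Ankrd37 and Bnip3 were lowest there in 1 and Pgk1, Ldha and Ndufa4l2 in 0. What set the Vegfa level of that library apart was not tested.

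Within the GC-like cells Vegfa differed between subclasses, named from mural, cumulus, atretic, mitotic, glycolytic antral and growing-follicle markers. Glycolytic antral-like cells, marked by Cox4i2, Slc16a3 and Ldha, had 54.6 and 67.7 CPM in Fosl2F/F libraries and 58.8 and 78.0 in those labelled Fosl2cKO. Cumulus-like cells, which surround the oocyte, had 35.8, 70.6, 66.1 and 69.5 CPM. Atretic-like cells, of follicles undergoing degeneration, were at the low end with 16.6, 23.6, 31.2 and 27.1 CPM. The glycolytic antral-like range lay above the whole atretic-like range, while mitotic-like (36.5 to 45.9), mural-like (30.9 to 41.5) and growing follicle-like (17.7 to 46.0 CPM) cells had means between these and overlapped one another.

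Vegfc, the lymphangiogenic ligand, was highest in blood endothelial-like cells. There it reached 229 and 207 CPM in Fosl2F/F libraries and 173 and 258 CPM in those labelled Fosl2cKO, and no other population overlapped that range. Stromal-like cluster 0 followed at 56.7, 56.4, 43.2 and 74.5 CPM. Together these populations supplied most of the Vegfc UMIs, with a mean share of 34.9% for endothelial-like and 30.5% for stromal-like cells. The Myh11 cluster (cluster 14) of the pericyte or smooth muscle-like class came next at 35.6, 44.3, 37.0 and 59.5 CPM. GC-like cells had only 1.86 to 3.27 CPM, and lymphatic endothelial-like cells, which carry the receptor, had a Vegfc UMI in 0.735% of thinned cells on average.

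Among endothelial-like cells the level of Vegfc was highest in arterial-like and next in venous-like cells. They were named from markers such as Gja5 and Bmx for arteries and Nr2f2 and Ackr1 for veins. Arterial-like cells had 752 and 739 CPM in Fosl2F/F libraries and 614 and 1218 CPM in those labelled Fosl2cKO. Venous-like cells had 418, 174, 365 and 402 CPM. Capillary-like cells (Gpihbp1, Rgcc) had 66.3, 74.3, 71.9 and 81.9 CPM, so the ranges of the 3 subclasses did not overlap. These values rest on 22 to 101 arterial-like, 36 to 198 venous-like and 55 to 170 capillary-like cells per library. Summed UMIs per library were 102819 to 378665 in venous-like and 633733 to 1790774 in capillary-like cells. Levels in CPM therefore do not give the share of Vegfc UMIs that each subclass held.

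Pgf, which codes for placental growth factor, a ligand of FLT1, had its highest levels in a few vascular populations. Lymphatic endothelial-like cells had 91.2 and 127 CPM in Fosl2F/F libraries and 48.7 and 87.0 CPM in those labelled Fosl2cKO. The Rgs5 cluster (cluster 13) of the pericyte or smooth muscle-like class had 94.3, 48.2, 37.6 and 58.3 CPM, a range that overlapped the lymphatic one, and as the larger population it held 47.5% ± 11.3 (SD, n = 4 libraries) of all Pgf UMIs. Blood endothelial-like cells came next in order and were clear of both, at 12.5, 8.29, 3.26 and 3.66 CPM. The other 12 populations averaged at most 1.21 CPM, although GC-like cells, by their number, held a mean of 8.22% of the Pgf UMIs, against 8.51% in blood endothelial-like cells.

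Angpt1, the agonist of TEK, was highest in smooth muscle-like, stromal-like, pericyte-like and theca-like populations. Myh11 cluster 14 had 223 and 113 CPM in Fosl2F/F libraries and 94.3 and 247 CPM in those labelled Fosl2cKO. Stromal-like cluster 0 had 135, 101, 65.6 and 137 CPM and held 27.8% ± 6.54 (SD, n = 4 libraries) of the Angpt1 UMIs, the largest mean share. In the second Fosl2F/F library luteal-like cluster 11 held more, 34.4% against 18.4% for stromal-like cluster 0. Rgs5 cluster 13 (113, 72.8, 59.2 and 144 CPM) and the Hhip theca-like cluster 1 (74.7, 67.8, 49.5 and 102 CPM) followed, and each of these neighbours overlapped in range. In all 4 populations the first library labelled Fosl2cKO was the lowest and the second was the highest. GC-like cells had 1.28 to 2.85 CPM. Endothelial-like cells had 48.1 to 75.7 CPM, and within them Angpt1 was higher in arterial-like (140 to 185) than in venous-like (43.5 to 97.3) or capillary-like cells (18.7 to 58.8 CPM), the last 2 overlapping.

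Angpt2, the context-dependent antagonist, was highest in lymphatic endothelial-like cells. It was at 330 and 439 CPM in Fosl2F/F libraries and 525 and 446 CPM in those labelled Fosl2cKO, above every value elsewhere. Epithelial-like cells, named from keratin and uroplakin markers, had 155, 61.7, 67.6 and 230 CPM, and Rgs5 cluster 13 had 107, 59.5, 54.1 and 80.4. Theca-like clusters 1 and 16 lay at 47.9 to 64.3 and 43.5 to 56.8 CPM, each overlapping its neighbour above in the order. Blood endothelial-like cells, at 29.7 to 36.7 CPM, lay below both theca-like clusters. GC-like cells were low in level (6.12 to 9.75 CPM) but, being numerous, held 22.1% of all Angpt2 UMIs on average and 35.8% in the first Fosl2F/F library, next to 22.8% for theca-like cluster 1 and 11.8% for epithelial-like cells on average. Although GC-like cells were low as a whole, within them atretic-like cells had 13.5, 24.0, 16.3 and 19.1 CPM and growing follicle-like cells 2.69 to 3.38, ranges that did not overlap. Mural-like cells were uneven in Angpt2, with 15.6, 4.92, 29.9 and 7.26 CPM, and the groups overlapped.

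**Figure D2:**
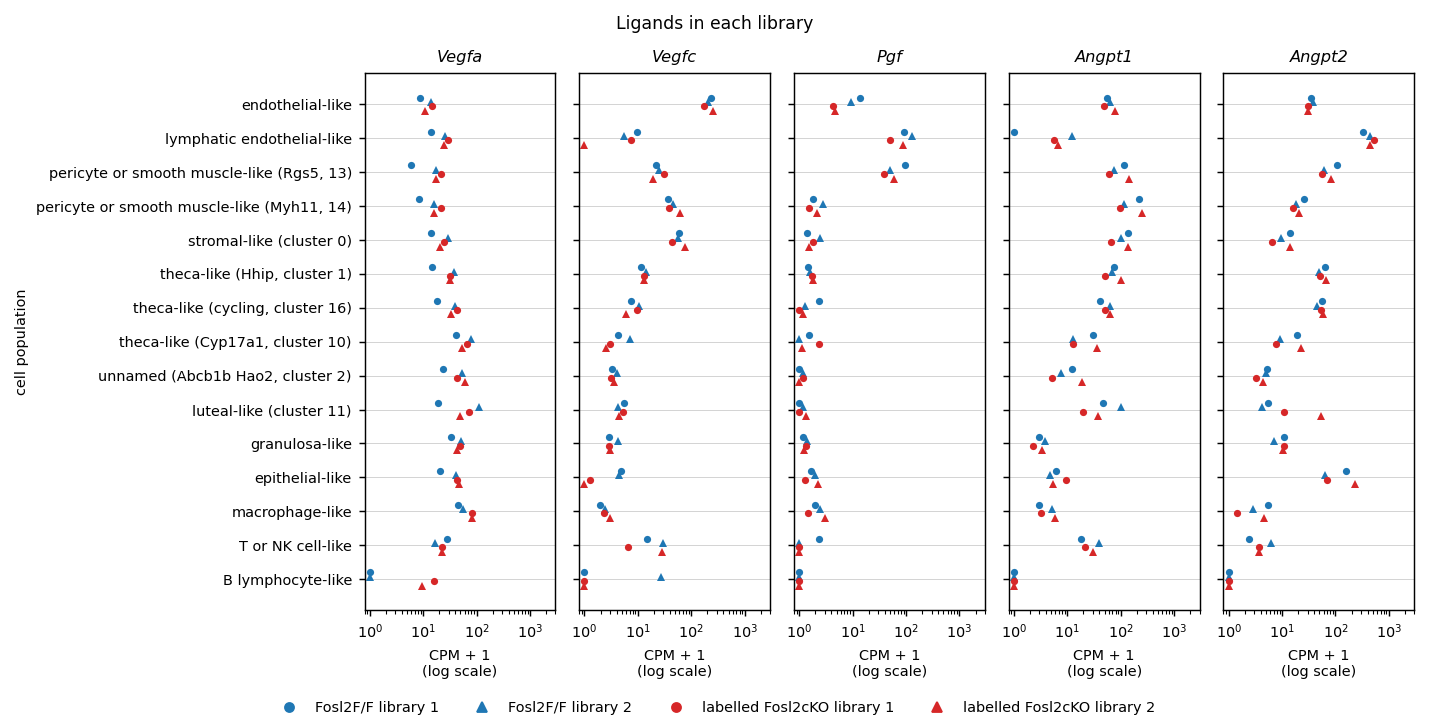
The 5 ligands in each library. The x axis gives CPM + 1 on a log scale, rows are the 15 cell populations, blue points are Fosl2F/F and red points the libraries labelled Fosl2cKO (circle, first library, and triangle, second). Angpt2 in lymphatic endothelial-like cells (330 to 525) and Vegfc in endothelial-like cells (173 to 258) stand to the right of all other rows, while Vegfa points of most rows overlap.

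Among the receptors, Flt1 was concentrated in blood endothelial-like cells, with 1170 and 1542 CPM in Fosl2F/F libraries and 1126 and 1399 CPM in those labelled Fosl2cKO. These cells held 91.4% ± 4.81 (SD, n = 4 libraries) of all Flt1 UMIs. Lymphatic endothelial-like cells had 0, 9.04, 12.6 and 0 CPM, the macrophage-like cells 8.06 to 17.4, and GC-like cells 0.987 to 3.89. In 9 of the 12 populations outside the endothelial, lymphatic and epithelial ones the second Fosl2F/F library, the shallow one, had the highest Flt1, which held for Kdr in 6 and for Tek in 3 of the 12. The part of its lower depth in this was not tested.

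To compare cells at equal depth, each cell was thinned to 2000 UMIs, which left out 509, 3966, 288 and 298 shallower cells of the 4 libraries. After thinning, 78.6 to 87.9% of endothelial-like cells had a Flt1 UMI, against 0.170 to 0.810% of GC-like cells, a population that should lack the receptor. Unthinned, the endothelial share was 89.5 to 93.0%, at median depths of 3414 to 8029 UMIs in endothelial-like and 4582 to 19209 UMIs in GC-like cells. Kdr was found in 54.7 to 59.3%, Nrp1 in 62.4 to 74.4%, Tek in 37.6 to 49.1% and Vegfc in 23.7 to 32.3% of thinned endothelial-like cells, while these shares in GC-like cells were at most 1.16%. Vegfa reversed that contrast, with 6.21 to 9.47% of thinned GC-like and 2.48 to 3.30% of thinned endothelial-like cells holding a UMI.

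Kdr, the main signalling receptor of VEGF-A, was shared by 3 populations. Blood endothelial-like cells had 480 and 566 CPM in Fosl2F/F libraries and 543 and 774 CPM in those labelled Fosl2cKO. Lymphatic endothelial-like cells had 621, 452, 541 and 609 CPM, so the first pair of populations in the order did not differ beyond their spread. Epithelial-like cells came next and were clear of both, at 108, 121, 162 and 134 CPM, and held 15.1% of the Kdr UMIs. Thinned epithelial-like cells carried a Kdr UMI in 11.8 to 24.7% of cells, above the 0.180 to 0.612% of GC-like cells, while the same cells summed to 192 to 351 CPM over the 11 endothelial markers, none of which was at 0. In the remaining 12 populations Kdr averaged at most 5.86 CPM.

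Flt4, the receptor of VEGF-C, marked the lymphatic endothelial-like cells. They had 773 and 454 CPM in Fosl2F/F libraries and 446 and 614 CPM in those labelled Fosl2cKO. Blood endothelial-like cells followed at 42.5, 53.2, 62.7 and 55.7 CPM, far below that range. All other populations averaged at most 1.54 CPM, although GC-like cells, by their number, held 20.4% of the Flt4 UMIs on average and 42.1% in the first Fosl2F/F library. After thinning, 47.4 to 79.4% of lymphatic endothelial-like cells had a Flt4 UMI, and 9.15 to 10.7% of blood endothelial-like cells did.

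Nrp1, the co-receptor, was the most widely expressed receptor. Blood endothelial-like cells had 608 and 631 CPM in Fosl2F/F libraries and 629 and 862 CPM in those labelled Fosl2cKO, and Rgs5 cluster 13 overlapped them at 373, 435, 360 and 631 CPM. Theca-like clusters 16, 1 and 10 followed with means of 245, 242 and 170 CPM, then macrophage-like cells (111, 170, 185 and 194) and stromal-like cluster 0 (165, 127, 132 and 235 CPM), each overlapping the next in range. Endothelial-like cells held 16.9% of the Nrp1 UMIs on average, against 22.4% in theca-like cluster 1, 14.7% in the unnamed cluster 2 and 13.1% in stromal-like cluster 0. The lymphatic endothelial-like cells, at 0 to 6.78 CPM, and the GC-like cells, at 1.86 to 5.66, were at the low end. Lymphatic endothelial-like cells thus carried Kdr and Flt4 at an Nrp1 level whose range overlapped that of GC-like cells.

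Tek, the angiopoietin receptor, was endothelial. Blood endothelial-like cells had 285 and 255 CPM in Fosl2F/F libraries and 226 and 286 CPM in those labelled Fosl2cKO, and held 69.2% ± 5.54 (SD, n = 4 libraries) of all Tek UMIs. Lymphatic endothelial-like cells were second, at 52.1, 197, 133 and 133 CPM, a range that did not reach the blood endothelial one. Rgs5 cluster 13 came next at 21.6, 11.3, 4.46 and 24.6 CPM. T or NK-like cells had 28.6 CPM of Tek in the second Fosl2F/F library and 1.39 to 4.12 CPM in the other 3, from sums of 384606 to 1086744 UMIs.

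**Figure D3:**
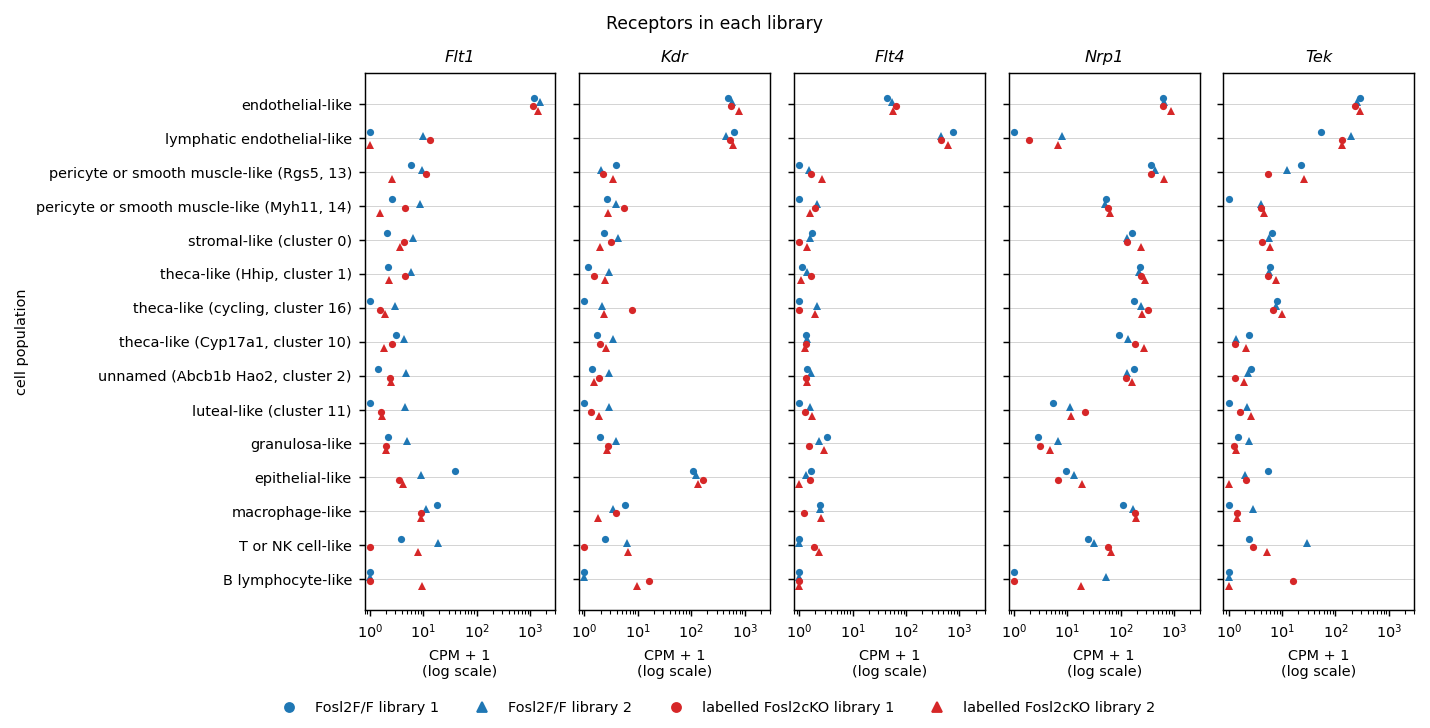
The 5 receptors in each library. The x axis gives CPM + 1 on a log scale, rows are the 15 cell populations, and colours and symbols mark group and library as for the ligands. Flt1 in endothelial-like cells (1126 to 1542) is separated from every other row, Kdr has high points in the endothelial, lymphatic and epithelial rows, and Nrp1 is spread over the pericyte, theca, stromal and macrophage rows.

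Of the receptors, only Tek separated an endothelial subclass from the others by its range. Kdr was highest in capillary-like cells (543 and 718 CPM in Fosl2F/F libraries, 628 and 897 in those labelled Fosl2cKO), followed by venous-like (408, 533, 493 and 549) and arterial-like cells (419, 345, 208 and 491 CPM), and each overlapped the next. Tek ran the other way, with capillary-like cells (257, 236, 208 and 212) below every arterial-like (413, 416, 325 and 594) and venous-like value (350, 290, 481 and 543 CPM). The Flt1 ranges of arterial-like (1114 to 1390), venous-like (1169 to 1656) and capillary-like cells (1193 to 1907 CPM) overlapped, as did those of Nrp1 and Flt4.

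**Figure D4:**
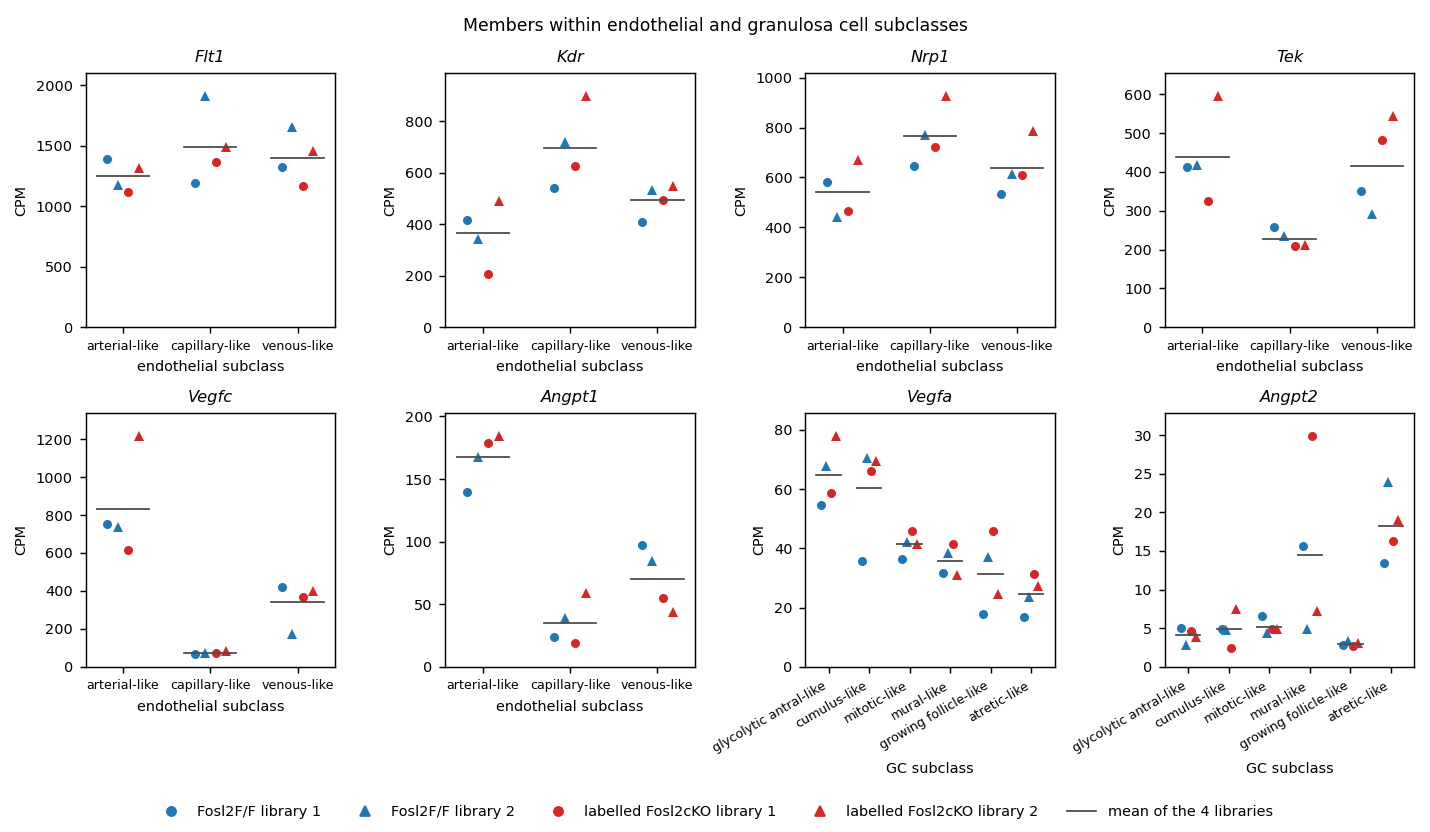
The first 6 panels show Flt1, Kdr, Nrp1, Tek, Vegfc and Angpt1 in arterial-like, capillary-like and venous-like endothelial subclasses, and the last panels show Vegfa and Angpt2 in GC subclasses. The y axis gives CPM from 0, points are libraries and the grey bar is the mean of the 4. Vegfc in capillary-like cells (66.3 to 81.9) lies below all arterial-like (614 to 1218) and venous-like points (174 to 418).

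Receptors were found together in single cells about as often as their separate shares would give. In thinned endothelial-like cells, Flt1 and Kdr were both detected in 43.5 to 53.6% of cells per library, and the product of their shares was 43.1 to 52.2%. Kdr and Tek were both detected in 20.9 to 26.8%, with products of 22.3 to 27.6%. Kdr and Nrp1 were both detected in 37.3 to 42.1%, with products of 34.3 to 41.3%, and somewhat above the product in every library. In lymphatic endothelial-like cells, Kdr and Flt4 were both detected in 29.5 to 61.8% of cells, with products of 27.9 to 58.4%. The lymphatic values rest on only 34, 85, 95 and 27 thinned cells in the 4 libraries.

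The genes whose mean level over the 15 populations was most like that of a member were found among 11233 genes by Pearson's r of log2(CPM + 1). The 15 points share libraries and differ in depth, so r is a description. Flt4 was matched most closely by Wscd1 (r = 0.99), Clca2 (r = 0.99) and Ttc9 (r = 0.98), Kdr by Ephb1 (r = 0.98), Sema3f (r = 0.98) and Stap2 (r = 0.97), and Tek by Adcy4 (r = 0.97), Bcl6b (r = 0.97) and Pcdh12 (r = 0.96). Flt1 was closest to Fam167b (r = 0.96), 4930542D17Rik (r = 0.96) and Sox17 (r = 0.95), which is also one of the endothelial markers. Pgf went with Slc16a12 (r = 0.95), Foxc2 (r = 0.93) and Shc3 (r = 0.92), Angpt2 with Unc5b (r = 0.92), Agrn (r = 0.91) and Cavin2 (r = 0.89), and Angpt1 with Slit3 (r = 0.91), Dlg4 (r = 0.88) and Acyp2 (r = 0.88). Vegfa was closest to Ssr4 (r = 0.93), Asl (r = 0.93) and Pigs (r = 0.92), Nrp1 to Fhod1 (r = 0.89), Vcam1 (r = 0.88) and Cxcl10 (r = 0.86), and Vegfc to Clec14a (r = 0.87), Rapgef4os1 (r = 0.86) and 4930517O19Rik (r = 0.85). Among the members themselves the closest pairs were Flt4 with Tek (r = 0.83) and with Kdr (r = 0.83), while Vegfa and Vegfc ran against each other (r = −0.37).

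The study asked what the loss of Fosl2 from GCs does to the ovary, and the ligands and receptors were compared between groups in every class with at least 20 cells in each library. No member passed in any class: 0 of 76 member and class pairs, in 11 classes, had an adjusted p under 0.1 with a log2 fold change over 0.25 in size (edgeR quasi-likelihood test, Benjamini-Hochberg adjustment over all genes of the class). Over all genes and classes 0.164% of tests passed, so few calls could be looked for among 76. The share was 0.0529% in B lymphocyte-like, 0.212% in stromal-like, 0.0327% in theca-like and 0.126% in the unnamed cells, and it is given for other classes beside their members. At an unadjusted p under 0.05 there were 7 pairs. The share of all genes at that limit is not given, so this count is not read as a result about the members. DESeq2 called 2 pairs (Flt1 in epithelial-like and Angpt2 in luteal-like cells). Leaving out the second Fosl2F/F library gave 2 calls, Flt1 in epithelial-like and Nrp1 in T or NK-like cells, and leaving out either library labelled Fosl2cKO gave 1, the same Flt1 pair. The CPM of the groups did not overlap in 23 of the 76 pairs (30.3%), against 32.5% of all tests, with 12 above and 11 below in the libraries labelled Fosl2cKO, against 18.6% and 13.9% of all tests. Testing the clusters of divided classes singly (0.0435% of all tests passed), the GC subclasses (0.0143%) and the endothelial subclasses (0.132%) gave 0 of 46, 0 of 39 and 0 of 21 pairs. Of the pairs tested, 4, 0 and 0 had an unadjusted p under 0.05. These counts again stand without the share of all genes at that limit and are not read as a result.

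**Figure D5:**
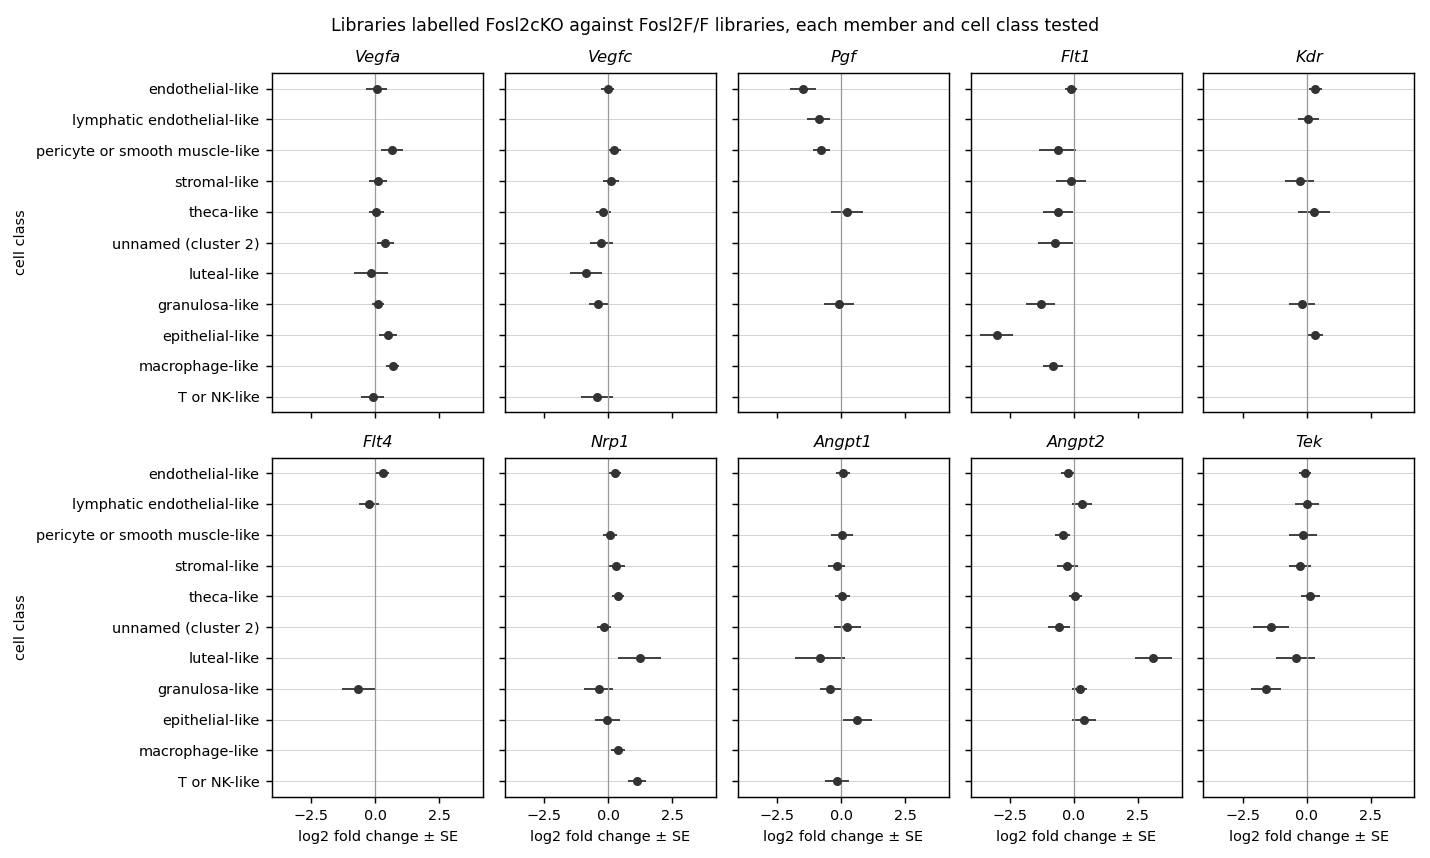
Log2 fold change (point) and standard error (bar) of each member between the libraries labelled Fosl2cKO and the Fosl2F/F libraries, by cell class. One panel per gene shows the classes in which it passed the filter on low counts, and the grey line marks 0. The points farthest from 0 are Angpt2 in luteal-like cells (3.11) and Flt1 in epithelial-like cells (−3.01), and neither passed.

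In GC-like cells, where the Cre acts, Vegfa differed by a log2 fold change of 0.11 (SE 0.23, n = 2 libraries per group), within its error, and by −0.12 without the first Fosl2F/F library. The groups overlapped in the levels of GC-like cells as a whole given above. The tested subclasses ran from −0.75 in an unnamed subclass to 0.48 in atretic-like cells, with no adjusted p below 0.690 (edgeR). In both of these subclasses the groups did not overlap. The share of all genes not overlapping there is not given, so this is not read as a result about Vegfa. Angpt2 in GC-like cells had a log2 fold change of 0.23 (SE 0.29). The other 8 members were below 0, from −0.09 for Pgf to −1.60 (SE 0.59) for Tek, and none passed. Tek, at 0.502, 1.38, 0.260 and 0.349 CPM, and Flt1, at 1.19, 3.89, 1.06 and 0.987 CPM (−1.30, SE 0.56), did not overlap between the groups, as was so for 31.7% of genes, and both were highest in the second Fosl2F/F library. Only 1 of 17279 genes passed in GC-like cells (0.00579%), Plb1, so the class gives little room for any list.

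No endothelial receptor passed the test between groups. The log2 fold change in blood endothelial-like cells was −0.11 (SE 0.25) for Flt1, 0.33 (SE 0.25) for Kdr, 0.27 (SE 0.24) for Nrp1, −0.07 (SE 0.24) for Tek and 0.28 (SE 0.25) for Flt4 (n = 2 libraries per group). Each had an edgeR adjusted p of 0.9996. Kdr, Nrp1 and Flt4 shifted by more than their errors without passing, so the shift that 4 libraries could detect is larger than these errors. Vegfc had a log2 fold change of −0.02 (SE 0.25). Pgf was the member with the largest shift in these cells, at 12.5 and 8.29 CPM in Fosl2F/F libraries and 3.26 and 3.66 in those labelled Fosl2cKO, a log2 fold change of −1.496 (SE 0.51) that did not pass (edgeR adjusted p = 0.658, with 0.177% of genes passing in the class). These cells held 8.125, 14.3, 4.82 and 6.82% of the 160, 231, 166 and 132 Pgf UMIs of the 4 libraries. The Pgf values there thus rest on few UMIs.

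Pgf was also lower in lymphatic endothelial-like cells (log2 fold change −0.87, SE 0.45, edgeR adjusted p = 0.891) and in the pericyte or smooth muscle-like class (−0.76, SE 0.33, edgeR adjusted p = 0.999), where it was at 43.0, 26.6, 16.9 and 25.0 CPM. In all 3 vascular classes the groups did not overlap, as was the case for 28.3% of all genes in endothelial-like, 32.6% in lymphatic endothelial-like and 30.6% in pericyte or smooth muscle-like cells, and the test was not passed. It was passed by 0.453% of genes in the lymphatic and 0.0738% in the pericyte or smooth muscle-like class. Within Rgs5 cluster 13, which held nearly all Pgf UMIs of the last class, the groups overlapped (log2 fold change −0.57, SE 0.38, edgeR adjusted p = 0.996). In lymphatic endothelial-like cells Flt4 had −0.25 (SE 0.41), Kdr 0.07 (SE 0.40) and Angpt2 0.31 (SE 0.40) on the log2 scale.

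Angpt2 in luteal-like cells showed the largest difference of all pairs. Cluster 11 (Ces2a, Bhmt, Lhcgr) had 4.45 and 3.25 CPM in Fosl2F/F libraries and 9.72 and 51.6 CPM in those labelled Fosl2cKO. A UMI was seen in 1 of 68, 28 of 897, 35 of 313 and 81 of 257 cells, so the groups did not overlap in either measure, and 45.8% of all genes in this cluster did not overlap in level. The log2 fold change was 3.03 (SE 0.90) in cluster 11 and 3.11 (SE 0.73) in the luteal-like class, and neither passed (edgeR adjusted p = 0.667 and 0.302, with 0.016% and 0.0156% of genes passing). The class was made up differently in the groups, since cluster 18 gave 109 of 177 and 348 of 1245 luteal-like cells in Fosl2F/F libraries but 15 of 328 and 31 of 288 in those labelled Fosl2cKO. Without the 3 cells richest in Angpt2 in each library, cluster 11 had 0, 2.19, 7.23 and 42.5 CPM. The 68 cells of the first Fosl2F/F library had a median of only 1494.5 UMIs, against 8391 to 15594 UMIs in the other 3 libraries, and whether they are luteal cells of the same state was not tested. The 7 theca markers summed to 494, 784, 1618 and 1178 CPM in cluster 11, higher in the libraries labelled Fosl2cKO. None of these markers was at 0 over the 4 libraries together. Plb1, which divided the libraries by label, was among the 10 leading genes of cluster 11. The part of either in the Angpt2 values was not tested. Leaving out the first library labelled Fosl2cKO gave Angpt2 in cluster 11 a log2 fold change of 3.77, and leaving out the second lowered it to 1.39. Over 11 other settings, these included, Angpt2 in cluster 11 passed in 3, with log2 fold changes from 1.39 to 4. Each fit without a library leaves 1 in its group, which is assumed to vary like the other group. Over all genes of the divided clusters, the number of calls in such fits moved in either direction.

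In cluster 11, Angpt1 and Vegfa were highest in the second Fosl2F/F library, and Vegfc was at 3.18 to 4.45 CPM, from only 1 UMI in the first Fosl2F/F library. Angpt1 was at 44.5, 101, 18.7 and 37.2 CPM (log2 fold change −1.62, SE 0.52, edgeR adjusted p = 0.701), found in 3 of 68, 472 of 897, 60 of 313 and 39 of 257 cells, so in level both Fosl2F/F libraries lay above those labelled Fosl2cKO (as 45.8% of genes of the cluster did not overlap), while in share of cells they lay on either side. Without the 3 richest cells of each library the values were 0, 98.2, 16.1 and 25.4 CPM. Vegfa was at 17.8, 112, 70.5 and 47.2 CPM (log2 fold change −0.46, SE 0.64). The first Fosl2F/F library contributed 10 UMIs of Angpt1 and 4 of Vegfa to these values.

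Flt1 in epithelial-like cells had the lowest adjusted p of the classes, 0.1303 (edgeR, log2 fold change −3.01, SE 0.65, with 0.141% of genes passing in the class and 23.5% not overlapping between groups). It was at 38.7 and 8.10 CPM in Fosl2F/F libraries and 2.57 and 3.14 in those labelled Fosl2cKO. Of the 61 UMIs in the first Fosl2F/F library, 58 came from 1 cell, and without the 3 richest cells of each library the values were 0.675, 2.73, 0.291 and 0.655 CPM. The 3 richest cells of that library held a sum of 77 UMIs of endothelial markers, against a median of 3 in its epithelial-like cells. Without the second Fosl2F/F library or without the first or second labelled Fosl2cKO the pair passed, again with 1 library in a group taken to vary like the other (edgeR adjusted p = 0.00923, 0.0101 and 0.00015), while the fit without the first Fosl2F/F library, which holds that cell, did not call it (−1.57, edgeR adjusted p = 0.825). In all it passed in 10 of 15 other settings, and the other 7 (both blocks, DESeq2, no TMM, no gene filter, more doublets removed and no integration) keep the library with that cell.

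Several macrophage, lymphocyte, thecal and venous values lay apart without passing, in both directions. Vegfa in macrophage-like cells had a log2 fold change of 0.68 (SE 0.25, edgeR adjusted p = 0.617), from the values given above, in a class where 0.34% of genes passed and 34.3% did not overlap. Nrp1 in T or NK-like cells was at 23.7 and 31.2 CPM in Fosl2F/F libraries and 57.1 and 65.8 in those labelled Fosl2cKO (log2 fold change 1.13, SE 0.35, edgeR adjusted p = 0.213, and 0.0579 without the second Fosl2F/F library), from 17, 12, 62 and 48 UMIs. In that class 0.708% of genes passed and 42.9% did not overlap. Nrp1 in theca-like cluster 10 was at 93.6, 137, 184 and 266 CPM (0.90, SE 0.32, edgeR adjusted p = 0.999), where 0.0397% of genes passed and 30.4% did not overlap. The 9 stromal markers summed to 2349, 2657, 2846 and 3967 CPM in that cluster, and their part in these Nrp1 values was not tested. Tek in venous-like cells was at 350, 290, 481 and 543 CPM (0.66, SE 0.35, edgeR adjusted p = 0.913), where 0% passed and 35.5% did not overlap. Lower in the libraries labelled Fosl2cKO were Vegfc in theca-like cluster 10 (3.18, 6.17, 1.98 and 1.58 CPM, −1.47, SE 0.56), Flt1 in the same cluster (−1.29, SE 0.66) and in macrophage-like cells (17.4, 10.4, 8.17 and 8.06 CPM, −0.82, SE 0.40), and Angpt1 in venous-like cells (97.3, 84.5, 54.8 and 43.5 CPM, −0.88, SE 0.50). The 11 endothelial markers summed to 49.2, 57.1, 33.1 and 42.7 CPM in macrophage-like cells, and their part in the Flt1 values there was not tested. Nrp1 in macrophage-like cells lay higher in the libraries labelled Fosl2cKO (0.40, SE 0.27).

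Further genes of the pathway, of vessel growth and of its control were tested as 4 lists. The lists were chosen with earlier results of these data known, so a shift of a list is a description and not support for a change. Of 14 other pathway genes (such as Vegfd, Nrp2, Tie1 and Ptprb) 0 rose and 0 fell in 105 gene and class pairs, and the same count held for 57 pairs of 10 genes of angiogenic endothelium, 59 pairs of 7 angiogenesis inhibitors and 130 pairs of 13 hypoxia genes. The median log2 fold change of a list in a class ran from −0.08 to 0.32 for the other pathway genes, from −0.61 to 0.75 for the angiogenic endothelial genes, from −0.39 to 0.62 for the inhibitors and from −0.87 to 0.32 for the hypoxia genes, whose lowest value rests on 2 genes in B lymphocyte-like cells, and that of the 10 members from −0.38 to 0.40. In endothelial-like cells 8 of the 10 angiogenic genes were above 0, with a median of 0.57, and in capillary-like cells 9 of 10, with a median of 0.51, against −0.002 and −0.01 over all genes tested there. The same list had 4 of 7 above 0 in arterial-like (median 0.16), 5 of 6 in venous-like (0.29), 3 of 8 in theca-like (−0.57) and 0 of 4 in lymphatic endothelial-like cells (−0.61). Over the subclasses, only Apln, the apelin ligand of sprouting endothelium, passed: it rose in capillary-like cells from 7.89 and 14.5 CPM in Fosl2F/F libraries to 47.9 and 41.5 CPM in those labelled Fosl2cKO (log2 fold change 1.83, SE 0.37, edgeR adjusted p = 0.0612, with 0.264% of genes passing). It did not pass without the first or the second Fosl2F/F library (edgeR adjusted p = 0.168 and 0.223). In the whole endothelial-like class Apln was at 6.75, 18.8, 119 and 38.3 CPM and did not pass (2.42, SE 0.49, edgeR adjusted p = 0.122). It passed in 6 of 15 other settings, which were the 4 fits without a library, no gene filter and the crossed block, with log2 fold changes from 1.41 to 3.50 and adjusted p from 7.71e-14 to 0.9999 (DESeq2) over the 15. In a small endothelial subclass left unnamed, with 7, 118, 42 and 13 cells and not tested, Apln was at 50.7, 47.8, 292 and 153 CPM, while Kdr was at 532, 482, 635 and 613 and Tek at 50.7, 146, 140 and 130. Its summed UMIs ran from 39441 to 877877 in a library, and the values from the 7 cells of the first Fosl2F/F library rest on few UMIs. Apln was the first of the genes leading this subclass, before Birc5 and Ccna2, and cycling markers gave its best score. The part of this subclass in the Apln level of the whole class, of 133, 613, 185 and 191 cells, was not tested.

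Since Fosl2 is part of AP-1, RefSeq promoter windows (GRCm38.p6, 250 bases before to 50 after each start) were searched on both strands for the AP-1 motif spelled TGANTCA. It was in 0 of the 10 windows listed for 8 members and in 7.81% of 32851 windows of the same length. No window was listed for Angpt1 or Angpt2, and the search says only that these letters are not in those windows.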

How the data were processed

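The authors deposited UMI counts per gene and barcode, whole numbers without normalization, made with Cell Ranger on GRCm38 (the submitters' processing notes also name Seurat 4.1.0, and the matrix header Cell Ranger 7.1.0). The methods name an earlier Cell Ranger version and CellBender, and whether its correction is in the deposited counts is not stated. The filter on barcodes asked for 500 detected genes, more than 1000 UMIs, less than 10% of them mitochondrial and less than 0.1% from hemoglobin genes, and the highest Scrublet scores (scanpy 1.11.5) were removed as doublets at 0.8% per 1000 cells, in place of the DoubletFinder that the authors used. Libraries were normalized by sctransform 0.4.2, integrated and clustered in Seurat 5.3.0 (3000 features without the members, 30 dimensions, resolution 0.8, and 0.5 within GC-like and endothelial-like cells). Names came from marker lists. UMIs were summed per class and library, kept by filterByExpr, scaled by TMM and compared by the edgeR 4.0.16 quasi-likelihood test (R 4.3.3), with DESeq2 1.42.0 as an alternative. The step was checked on simulated data. Named genes are the members, Fosl2, genes of 4 lists that passed or had at least 20 CPM, the 3 genes most like each member and leading genes of clusters. The members and lists were chosen with earlier results of these data known, and the tests of divided clusters, the crossed pairing and the values without the 3 richest cells were added after seeing the data.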

Additional observations from a re-analysis of the deposited data

Results flagged for a closer look

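Clusters with under 20 cells in 1 library were left out of the tests. Of 30 member values in 3 such clusters, 5 lay above both Fosl2F/F libraries in both libraries labelled Fosl2cKO and 4 lay below, against 18.6% above and 13.9% below over all genes of the tested classes. Only the upward values with at least 20 UMIs in both libraries labelled Fosl2cKO, 3 of the 5, are described in full. That floor was set on the group in which upward values are high. It therefore cannot weigh upward against downward values. The other upward ones were Angpt1 in luteal-like cluster 18 (3.63, 7.42, 12.96 and 32.4 CPM) and Angpt2 in stromal-like cluster 21 (0, 0, 1.18 and 11.6 CPM). The downward ones were Flt1 in luteal-like cluster 18 (0.605, 8.91, 0 and 0 CPM) and, in oocyte-like cells, Nrp1 (54.3, 36.8, 0 and 27.9), Angpt1 (10.9, 13.4, 0 and 5.58) and Tek (32.6, 16.7, 0 and 0 CPM), from at most 30 UMIs in a library. Luteal-like cluster 18 (Akr1c18, Ptgfr) had a mean of 100.7 CPM of Angpt2 in the libraries labelled Fosl2cKO, from 75.2 and 126, against 3.93 and 5.34 in Fosl2F/F libraries. It held 15 and 31 cells in the libraries labelled Fosl2cKO, of which 8 and 15 had a UMI, and without the 3 richest cells of each library the 4 values were 1.56, 3.91, 29.5 and 63.2 CPM. The 7 luteal markers of this cluster summed to 12685, 10733, 5448 and 6308 CPM, its 9 stromal markers to 78.4, 143, 373 and 210 and its 7 theca markers, 1 of them at 0, to 280, 261, 449 and 401 CPM, and their part in the Angpt2 values was not tested. Stromal-like cluster 21 (Clec3b, Dpt) had means of 99.53 CPM of Vegfc and 211.8 of Angpt1 in the libraries labelled Fosl2cKO. Its Vegfc was at 21.0 and 94.2 in Fosl2F/F libraries and 94.3 and 105 in those labelled Fosl2cKO, and its Angpt1 at 84.0, 94.2, 113 and 310 CPM, from 13 to 96 cells. The Vegfc values of the second Fosl2F/F and the first library labelled Fosl2cKO are nearly equal, and none of the 3 differences was tested.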

How the results depend on the processing

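The count of member and class pairs that passed, 0 as reported, was 1 with a replicate block, 1 with the crossed replicate block, 0 to 2 when single libraries were left out, 2 with DESeq2, 1 without TMM, 2 without the gene filter, 1 with more doublets removed and 1 without integration. In GC subclasses it was 1 without the gene filter, in endothelial subclasses 0 throughout, and in divided clusters 1 with the replicate block, 0 to 1 with single libraries left out and 2 without the gene filter. The pairs were Flt1 in epithelial-like cells (in 10 of 15 settings) or growing follicle-like cells, Angpt2 and Angpt1 in luteal-like cells and Nrp1 in T or NK-like cells, and the cause was not tested. Over genes, the first library minus the second in Fosl2F/F was correlated with the same difference in the libraries labelled Fosl2cKO. The correlation was −0.27 to 0.37 over 23 classes and subclasses, so the numbers were not taken to pair the samples. The directions that turned belonged to values that did not pass as reported. Vegfc in endothelial-like cells had a log2 fold change of 0.01665 without the gene filter and 0.04235 with more doublets removed. With single libraries left out the log2 fold changes ran as follows. Flt1 in endothelial-like cells was at −0.28 to 0.0904, Tek at −0.27 to 0.10 and Vegfc at −0.35 to 0.26. In lymphatic endothelial-like cells Flt4 was at −0.61 to 0.17 and Kdr at −0.17 to 0.30. Vegfa was at −0.12 to 0.42 in GC-like, −0.066 to 0.82 in cumulus-like, −0.13 to 0.31 in glycolytic antral-like and −1.08 to 1.74 in luteal-like cluster 11 cells. Angpt2 in mural-like cells was at −0.61 to 1.90. Apln in capillary endothelial-like cells did not pass with an adjusted p under 0.05 as the rule, with DESeq2 (adjusted p = 0.304), or without the first or the second Fosl2F/F library (edgeR adjusted p = 0.168 and 0.223). Over all genes and classes 219 calls became 352 to 1988 with single libraries left out and 115 to 3192 under the other settings, and in GC subclasses 13 became 36 to 849 and 12 to 2453. In endothelial subclasses 26 became 17 to 163 and 13 to 156, and in divided clusters 37 became 0 to 827 and 19 to 1330. Each of the 10 members kept its highest class under all settings on cells and clusters, and 8 did without the second library labelled Fosl2cKO.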

Other observations

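Levels of other genes of the pathway are given here for endothelial-like populations and for theca-like cluster 16. Those of Sema3d, Sema3a and Vegfd are given without the other populations, so they show no pattern over populations. Nrp2, the co-receptor of VEGF-C, was at 1385 and 1194 CPM in lymphatic endothelial-like cells of the Fosl2F/F libraries and 898 and 1026 in those labelled Fosl2cKO, against 202 to 328 CPM in blood endothelial-like cells, the reverse of Nrp1. The semaphorin genes Sema3d (274 to 622 CPM) and Sema3a (169 to 446 CPM) were also found in lymphatic endothelial-like cells, both lowest in the first Fosl2F/F library. Tie1, the partner of TEK, was at 165 to 209 CPM in lymphatic and 113 to 160 in blood endothelial-like cells, and the phosphatase Ptprb, which acts on TEK, at 274 to 348 and 660 to 746 CPM. Vegfd, a further ligand of FLT4, was at 55.2, 69.0, 57.4 and 77.2 CPM in theca-like cluster 16. These are levels only, and none of the genes passed the test between groups.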
